A study of Drosophila sechellia with 6 samples.

Results

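The alkaline phosphatase genes of *Drosophila sechellia* described here are GM12919, GM13909, GM15654 and GM14710, 4 of the 17273 genes in the table. They were chosen by name, as the genes that carry an alkaline phosphatase of *D. melanogaster* as their ortholog: *Alp4* for GM12919, *CG10592* (*Alp10*) for GM13909, *CG5150* (*Alp9*) for GM14710, and both *Alp2* and *Alp8* for GM15654. The ortholog names came for all 4 only from the study's tables of genes that changed, so unchanged members of the family could go unnamed. Whole adult females of the strain 14021-0428.25, aged up to 3 days, were kept for 24 h on instant control food or on the same food mixed with 1 g of rotten pulp of noni, the fruit of *Morinda citrifolia* on which this species specializes. There were 3 libraries per diet, each from 10 pooled flies, and both diets shared the strain, the age and the base food. The table gives 1 FPKM value per gene and diet (fragments scaled to transcript length and library size), pooled over the 3 libraries, so there is no spread between libraries, no SD and no test for any value below. The number of fragments behind a value is unknown.

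Alkaline phosphatases are zinc- and magnesium-dependent enzymes that cut phosphate groups off many small molecules and proteins, and work best at high pH. Many are held by a lipid anchor on the outer face of the cell membrane, and their activity in the brush border is a classical marker of absorbing gut cells. Insects carry a family of such genes, and in *D. melanogaster* *Alp4* is known from the Malpighian tubule, the excretory organ, and from the ellipsoid body of the brain.

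All 4 genes had less RNA in the flies fed noni, and they were lower by close to the same factor. Their levels on noni were between 53.3% and 55.6% of those on control food, and their summed level was 985 FPKM on control food and 533 FPKM on noni. A gene was counted as lower or higher when its values, with 1 FPKM added to each, differed by at least 1.5-fold. By this rule all 4 were lower, against 8.90% of the 12044 genes whose mean over both diets reached 1 FPKM, called expressed genes below, and none was higher, against 4.92% of the expressed genes. The names of all 4 came only from the study's tables of genes that changed, so the count of 4 of 4 follows in part from how the genes were found and was not tested. Those tables cover noni and separate treatments with octanoic acid, hexanoic acid and L-DOPA, so a gene in them need not have changed on noni.

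GM15654 had the highest level of the group, at 373 FPKM on control food and 202 FPKM on noni. Its value on noni was lower by 170 FPKM, a log2 change of -0.88. The table gives it a locus on scaffold 9 of the dsec_caf1 assembly, from 1384090 to 1410310, which is 26221 nt long and is also the locus of 5 other genes. The table thus does not place GM15654 within this stretch, and reads of overlapping genes could have been divided between them.

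GM12919, the ortholog of *Alp4*, was listed at 311 FPKM on control food and 166 FPKM on noni. Its log2 change of -0.90 was the lowest of the 4. It lies alone in its locus on scaffold 4, from 5699550 to 5702819.

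GM13909 was listed at 156 FPKM on control food and 84.4 FPKM on noni, a log2 change of -0.88. GM14710 was listed at 144 FPKM on control food and 80.3 FPKM on noni, a log2 change of -0.84. These genes sit side by side on scaffold 2, GM13909 from 5522313 to 5524698 and GM14710 from 5525074 to 5526627, with 375 nt between them. They were also the closest in level, GM13909 being 1.08 times as high as GM14710 on control food and 1.05 times on noni.

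**Figure D1:**
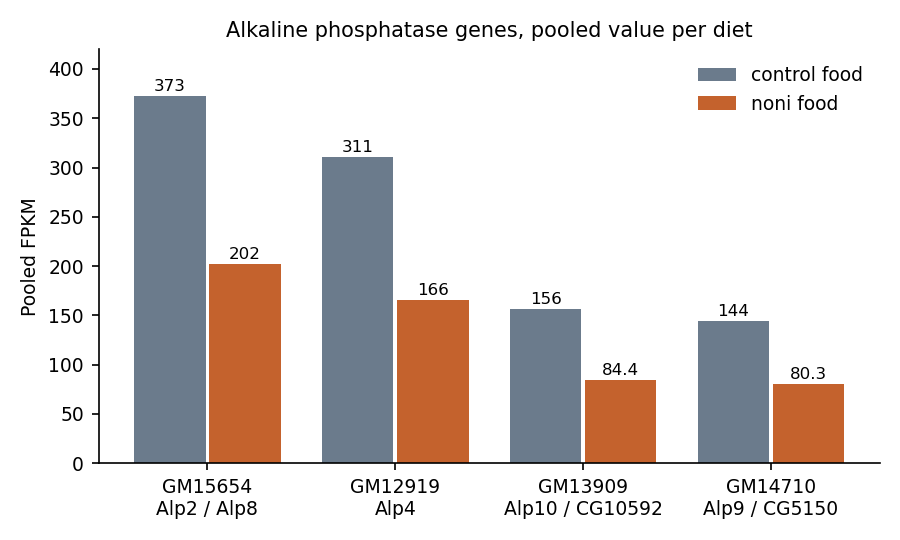
Pooled FPKM on control food (grey) and on noni food (orange) of the 4 alkaline phosphatase genes; each bar is 1 deposited value over 3 libraries, so there are no error bars. The order from GM15654 (373 and 202 FPKM) to GM14710 (144 and 80.3 FPKM) was the same on both diets.

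The levels kept their order and nearly their proportions between diets. GM15654 made up 37.9% of the summed FPKM of the group on control food and 37.98% on noni. The share of GM12919 was 31.6% and 31.1%, that of GM13909 was 15.9% and 15.8%, and that of GM14710 was 14.7% and 15.1%. The highest gene was 2.58 times the lowest on control food and 2.52 times on noni. Without values for single libraries it cannot be said which neighbours in this order differ beyond their spread. The log2 changes spanned 0.064, from -0.90 to -0.84, a range that also held 77 other genes, 0.640% of the other expressed genes.

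On control food all 4 were among the abundant transcripts. GM15654 was above 93.6% of the other expressed genes and GM14710, the lowest, above 86.6%. On noni these shares were 90.0% and 77.9%. The median of the expressed genes was 26.7 FPKM on control food and 27.6 FPKM on noni.

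The median log2 change of the 4 genes was -0.88. Over all expressed genes it was 0.04, with quartiles of -0.20 and 0.24. Of the other expressed genes 4.19% had a lower log2 change than GM12919 and 4.83% a lower one than GM14710, with the shares for the other two in between. The comparison was repeated with genes of a like level, those whose mean FPKM was within 2-fold of the gene in question. A lower log2 change than that of GM15654 was found for 50 of 1067 such genes, and than that of GM12919 for 58 of 1288. For GM13909 it was 75 of 2304 genes, and for GM14710 it was 83 of 2431. Of the 2004 other genes with a mean at least as high as that of GM14710, 12.2% were lower by 1.5-fold or more. The 4 genes were named by tables of changed genes, so their ranks follow in part from how they were found.

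**Figure D2:**
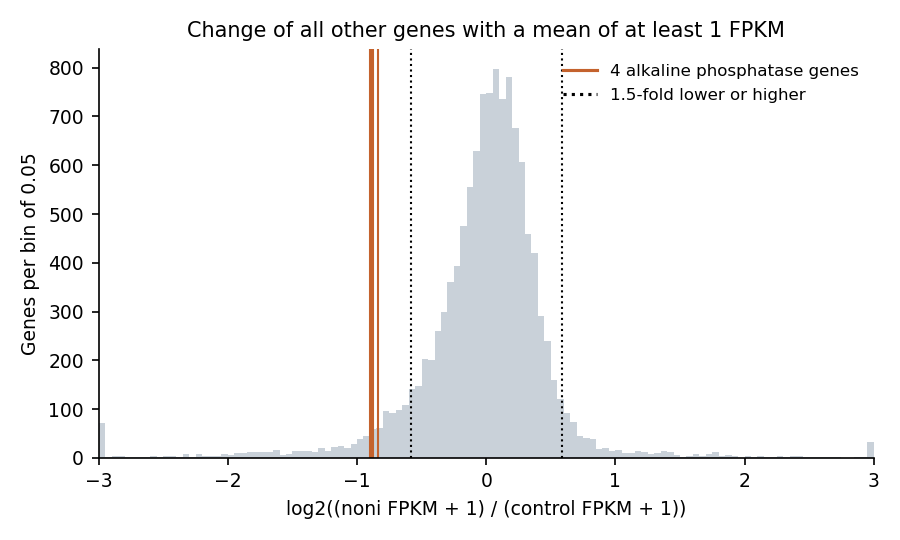
Number of genes per bin of the log2 change from control to noni food, with 1 FPKM added to both values, for the expressed genes (mean of both diets 1 FPKM or more) other than the 4; the outermost bins collect all changes beyond the axis. Orange lines mark the alkaline phosphatase genes, at -0.90 to -0.84, and dotted lines mark 1.5-fold.

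The nearest genes on either side of GM12919, of the pair on scaffold 2 and of the locus of GM15654 were not lower by 1.5-fold. GM12111, which starts 347 nt from the locus of GM12919, was listed at 243 FPKM on control food and 227 FPKM on noni, a log2 change of -0.10. On its other side GM12918 had 5.19 and 4.87 FPKM. The pair on scaffold 2 is flanked by GM13910, the ortholog of *spo*, which encodes a cytochrome P450 of ecdysteroid synthesis, at 10.6 FPKM on control food and 10.9 FPKM on noni. On the far side lies GM13908, listed under 1 FPKM in both diets. Within 50 kb of this pair there were 12 further expressed genes. None of them was lower by 1.5-fold, and their median log2 change was 0.03. One was higher, GM14712, which is listed at 0 FPKM on control food and 3.33 FPKM on noni. Within 50 kb of GM12919 there were 6 such genes, with a median log2 change of -0.23, against 0.01 over the expressed genes of scaffold 4. Of the 6 genes 1 was lower by 1.5-fold, GM12107, the ortholog of *CG11318*, at 6.08 FPKM on control food and 2.89 FPKM on noni.

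Among the 5 other genes listed in the locus of GM15654, 3 were lower on noni, and by more than GM15654 itself. GM15653 was listed at 97.6 FPKM on control food and 16.0 FPKM on noni, a log2 change of -2.54. GM15655 was listed at 5.17 FPKM on control food and 1.13 FPKM on noni, a log2 change of -1.53. The small nucleolar RNA gene snoRNA:GM27651 was listed at 1001 FPKM on control food and 314 FPKM on noni, a log2 change of -1.67. The other genes of the locus were GM15657, with 75.8 FPKM on control food and 61.2 FPKM on noni, and GM15895, with 34.3 FPKM on control food and 41.99 FPKM on noni. The sources used here give no ortholog for these genes. The genes on either side of the locus were GM15892, with 12.4 FPKM on control food and 12.2 FPKM on noni, and GM15896, with 28.5 FPKM on control food and 32.8 FPKM on noni. Outside the locus, 13 expressed genes lay within 50 kb, with a median log2 change of -0.02, and 2 of them were lower by 1.5-fold: GM15890 and GM15649, the ortholog of the organic anion transporter gene *Oatp58Db*. Across the table, 12.5% of the 977 expressed genes that share a locus field with another gene were lower by 1.5-fold, and 8.58% of the 11067 expressed genes with a locus of their own.

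**Figure D3:**
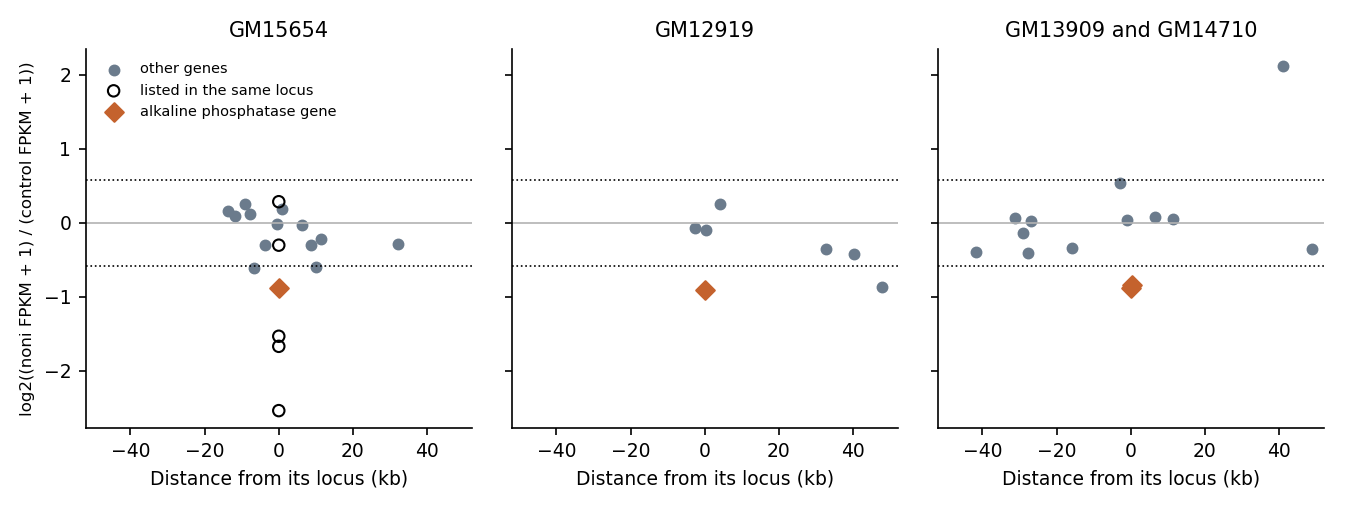
Log2 change from control to noni food, with 1 FPKM added, against the distance in kb from the locus of GM15654, GM12919 or GM13909, for expressed genes within 50 kb. Orange diamonds are alkaline phosphatase genes, open circles are genes listed in the locus of GM15654, 3 of which lie below it, and dotted lines mark 1.5-fold.

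The genes with the most similar pair of levels were found by the distance between log2(FPKM + 1) values over the 2 diets. Nearest to GM12919 was GM24487, the ortholog of *mex1*, a gene named for its expression in the midgut, at 301 FPKM on control food and 159 FPKM on noni. It was followed by GM19911 (*IM23*, an immune-induced peptide gene) and GM13766. The genes nearest to GM15654 were GM20320 (*CG44250*), at 368 FPKM on control food and 200.4 FPKM on noni, then GM14365 (*mat*) and GM25731 (*Mic26-27*). For GM13909 they were GM25140, the ortholog of the small heat shock protein gene *Hsp22*, at 155 FPKM on control food and 83.4 FPKM on noni, GM17343 (*lectin-37Db*) and a tRNA gene, tRNA:GM27433. GM17343 and GM25140 were also near GM14710, for which GM17368 was nearest. The likeness rests on 2 pooled values per gene.

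Of 26 alkaline phosphatase names in a list, 7 could be matched, and they led to the same 4 genes, so no other member of the family is described. Of 8 acid and inositol phosphatase names 2 could be matched, and both genes were lower by 1.5-fold, against 8.90% of the expressed genes. Both were named only by the tables of changed genes. GM18316 (*CG9451*, acid phosphatase) had a log2 change of -1.30, and GM24391 (*Mipp1*, an inositol polyphosphate phosphatase) of -0.63, which fell short of 1.5-fold with 10 FPKM added or with both diets scaled to the same sum. None of 11 names for zinc and magnesium handling could be matched.

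The expressed genes matched in the midgut lists had lower values on noni, as the alkaline phosphatase genes did, but by unlike amounts. Of 11 names of the midgut epithelium 7 were matched. The matched gene GM10536 (*lab*) was under 1 FPKM in both diets and was left out. Of the 6 expressed genes 5 were lower by 1.5-fold, against 8.90% of all expressed genes. The 5 were named only by the tables of changed genes, as the alkaline phosphatase genes were, and the sixth, *GATAe*, which has another source for its name, was not lower by 1.5-fold. The median log2 change of the 6 was -0.85. Both this median and that of the alkaline phosphatase genes rest mostly on genes named because they changed, on noni or in another treatment. The genes for the smooth septate junctions that seal the gut epithelium, GM12101 (*mesh*), GM19127 (*Tsp2A*) and GM22258 (*Ssk*), had log2 changes of -0.996, -1.01 and -0.79. GM24487 (*mex1*) was at -0.91, and GM24276 (*GATAe*, a transcription factor of the midgut) at -0.41. Of 52 names of digestive enzymes 24 were matched, to 21 genes. Of these 11 were lower by 1.5-fold, against 8.90% of the expressed genes, and none was higher, against 4.92%. The 11 include GM14229, GM14378, GM14380 and GM14382, with log2 changes from -0.80 to -0.76. They share the lysozyme names *LysB*, *LysD* and *LysE*, so they may not count as separate cases. The median log2 change of the 21 genes was -0.64, and the range was from -2.58 for *Mal-A7* to -0.01 for *Mal-A5*. Among the 10 of these genes named by another source than the tables of changed genes, 3 were lower by 1.5-fold, against 8.90% of the expressed genes. The 3 were *Mal-A1*, *Mal-A4* and *Mal-A7*. All 10 are *Amy*, *Amyrel* or *Mal* genes, with no trypsin or lysozyme gene among them.

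All 8 names of a list of midgut markers, each also in the lists of the preceding paragraph, were matched. Among them 3 were named by another source than the tables of changed genes. None of the 8 was at 0 FPKM, and their summed level was 1839 FPKM on control food and 813 FPKM on noni. Whole flies were measured, so fewer cells of a type and less RNA per cell cannot be told apart. The part of the midgut in the lower levels of the alkaline phosphatase genes was not tested.

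Genes of a list of Malpighian tubule markers had a smaller median change than the midgut lists. Of 13 names 6 were matched, and their summed level was 935 FPKM on control food and 830 FPKM on noni. GM10085 (*Vha68-2*) alone held 552 FPKM on control food and 469 FPKM on noni. Of the 6 genes 2 were lower by 1.5-fold, against 8.90% of the expressed genes. They were GM17065 (*Irk3*, a potassium channel gene) with a log2 change of -0.71 and GM15649 (*Oatp58Db*) with -0.59. Both were named only by the tables of changed genes. Another source named 3 of the 6 genes, and none of the 3 was lower by 1.5-fold. For the midgut epithelium it named 1 of 6, so the lists were not found in the same way. The 3 tubule genes with another source were GM10085 with a log2 change of -0.23, GM10628 (*NKCC*) with -0.11 and GM10393 (*Cyp6a8*) with 0.31. GM10393 was the only gene of the list with a higher value on noni. Whether the genes of the tubule and midgut lists mark those organs alone was not tested. GM16558, the ortholog of the urate oxidase gene *Uro*, was listed at 251 FPKM on control food and 238 FPKM on noni. The median log2 change of the 6 genes was -0.17, and -0.09 with both diets scaled to the same sum over all rows.

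Genes of a list of ovary markers went the other way. Of 13 names 12 were matched, and all 12 genes had higher values on noni, 9 of them by 1.5-fold, against 4.92% of the expressed genes. Only 3 of the 12 were named by another source than the tables of changed genes. They were the yolk protein genes GM11404 (*Yp1*) and *Yp2*, and *nos*, whose log2 change of 0.42 was under 1.5-fold. The summed level of the 12 was 43262 FPKM on control food and 75726 FPKM on noni. GM11404 held 13415 FPKM and 23781 FPKM of these sums, and *Yp2* held 11055.5 FPKM and 18179 FPKM. Whether the yolk protein genes mark the ovary alone was not tested, so these sums cannot be read as RNA of the ovary alone. The matched markers of the male accessory gland and testis, 6 of 9 names, were all under 1 FPKM in both diets, with 0.811 FPKM as the highest value, as the label of female flies has it. None of 5 names for the adult brain could be matched.

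**Figure D4:**
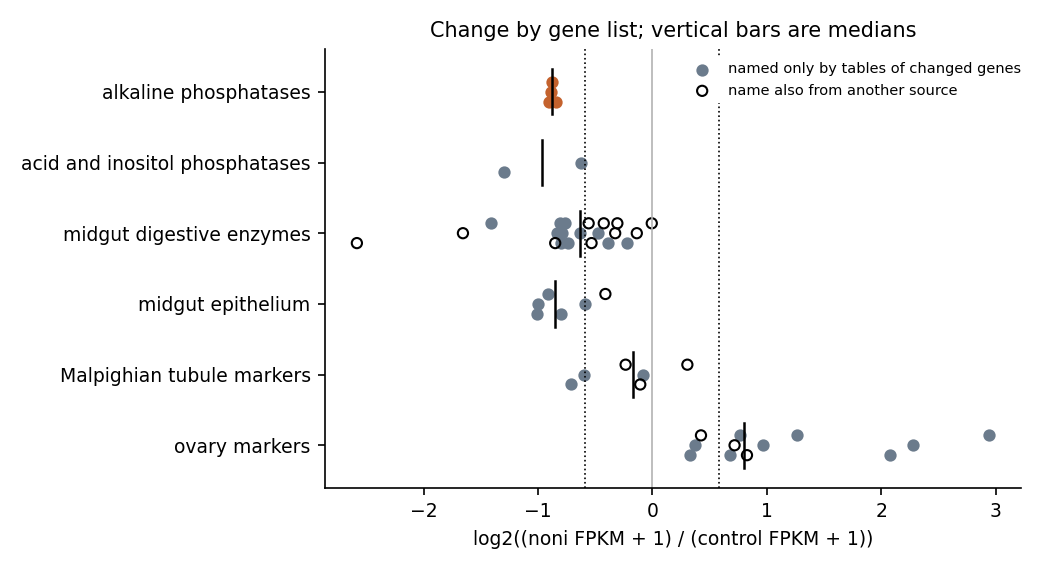
Log2 change from control to noni food, with 1 FPKM added, of the expressed genes in each list. Filled points were named only by the study's tables of changed genes, and open circles by another source, with or without those tables. Vertical bars are medians. The alkaline phosphatase genes (orange) have a median of -0.88 and the midgut epithelium of -0.85, both mostly from genes named by those tables, while the Malpighian tubule markers have a median of -0.17 and the ovary markers of 0.80.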

How the data were processed

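Messenger RNA of whole adult females was sequenced after poly(A) selection, with 3 libraries for each diet; the diet label set the groups. The authors ran FastQC on the reads, aligned these to dsec_caf1 with Bowtie2, and quantified genes of the Ensembl annotation with Cuffdiff. The deposited FPKM values are pooled per diet, and were corrected for library size and sequence bias with geometric normalization. The table also holds the authors' own ratios, test statistics, p-values and calls, which were not used. Reads of near-identical or overlapping genes may have been divided between genes.

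Log2 changes were computed as noni over control with 1 FPKM added, over expressed genes (mean of both diets 1 FPKM or more), using Python 3.11.15, numpy 2.4.6, pandas 2.3.3 and matplotlib 3.10.9. The code that applies the 1.5-fold rule was tested on simulated data, which gives no calibration of the rule, since the spread between libraries is unknown. Starts were read as counted from 0, because 49.6% of locus lengths are then multiples of 3, against 25.2% otherwise, and 1 was added to each. Names came from the deposited table and the ortholog columns of the study's supplementary tables, whose names for midgut and ovary genes come mostly from changed genes. Named genes were the 4 genes, the nearest neighbours, the 3 genes most similar to each, and list extremes. Other genes named in the loci or lists were chosen after their values were seen. The members, lists and the 1.5-fold rule were chosen with earlier results of these data known.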

Additional observations from a re-analysis of the deposited data

How the results depend on the processing

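No spread between libraries is known, so a value was taken as moved where it changed by more than 1.5 times. Values of the 4 genes and of the share of genes counted as lower were recomputed under other settings. Of these 50 values 47 did not move, 3 moved and 0 changed sign. All 3 that moved came from another fold. The median log2 change of the 4 alkaline phosphatase genes ran from -0.92 to -0.79 over 6 alternatives. These were a pseudocount of 0.1 or 10 FPKM, centring and 3 scalings. The lowest was centred on the median of the expressed genes, and the highest had both diets scaled to the same summed FPKM. The scalings multiplied noni values by 1.07 at most, and centring took 0.04 off each log2 change. Shifts this small could not move the log2 changes of the 4 genes by the rule above, so that they stayed says little. At a fold of at least 2 the number of alkaline phosphatase genes counted as lower was 0 instead of 4, while the share of expressed genes was 3.53%. At the smaller fold tried (a ratio of 5 to 4) the share of expressed genes was 17.8%, and all 4 alkaline phosphatase genes were counted. With the sums made equal, the number of digestive enzyme genes lower by 1.5-fold was 10 instead of 11, *Mal-A5* had a log2 change above 0, and the number of midgut epithelium genes was 4 instead of 5. A pseudocount of 10 FPKM left 0 of the 6 Malpighian tubule markers lower by 1.5-fold, and equal sums left 1, instead of 2, while their median log2 change went from -0.17 to -0.09. Of the acid and inositol phosphatase genes 1 instead of 2 was lower by 1.5-fold under each of these settings. No paired analysis was possible because the table holds 1 pooled value per diet, and for the same reason no library could be left out. The pooled values limit every statement here to these libraries.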
